A study of Rattus norvegicus with 16 samples.

Results

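The 44 cell division genes described here are a list of genes that work in DNA replication and mitosis, from the cyclins and replication licensing factors to the kinases, motors and checkpoint proteins of the spindle. They were chosen by gene name on a whole-genome rat array, 44 of 44 were found, on 62 of its 41012 probes, and 39 of them were among the 21488 genes tested. The other 5 (Ccne2, Mcm5, Cdc6, Nek2 and Nusap1) had no probe whose signal was clear of background on every array of an age, the condition for entering the test. Of the 39, 8 passed this filter through the 3-month arrays alone (Mcm6, Prc1, Aurkb, Cdt1, Cdca8, Kif11, Kif2c and Melk), so a lower level at other ages was built into their selection. For 24 of the 39, every array lay well above background.

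Liver of male Lewis rats, an inbred strain, was taken at 3, 9, 12, 18 and 24 months of age, with no treatment or genetic change named for any group. There were 3 samples at each of the first 4 ages and 4 at 24 months, each on 1 one-colour array. All animals lived under specific pathogen-free conditions with free food and water, and the labels do not say whether each sample is a separate animal, so p-values measure only the spread between these samples, which may be technical. The submitters name a microRNA labelling kit, whereas the probes on the array read messenger RNA.

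A cell that divides passes from a growth phase into DNA replication when cyclin D and cyclin E kinases release the E2F factors from their repressors, then copies its genome with the MCM helicase and a supply of deoxynucleotides. Cyclin A and cyclin B with Cdk1 drive it into mitosis, where kinesins, the chromosome passenger complex and the spindle checkpoint sort the chromosomes until the anaphase-promoting complex ends the phase. Most of these genes are transcribed mainly while a cell cycles. In the adult liver hepatocytes are largely quiescent but can return to the cycle after injury or loss of tissue, and in a growing animal some still divide, as do blood and other non-parenchymal cells.

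Levels are given throughout as log2 signal relative to the 75th percentile of the array, in the order of the replicate numbers (1 to 3 at 3 and 9 months, 2 to 4 at 12 months, 1, 3 and 4 at 18 months, 1 to 4 at 24 months). A level compares arrays for 1 gene and does not rank genes against each other. A gene is called changed when its adjusted p over all 21488 genes is under 0.05 in the limma fit over all 16 arrays. The share of probes well above background ranged from 52.5% to 65.2% over the arrays, with no saturated spot. Precision is limited by how few arrays there are. Over all genes, the mean correlation of an array with the others of its age was 0.988 or higher at 3, 9 and 18 months. It was 0.962 to 0.975 at 12 months and 0.969 to 0.976 at 24 months, lowest on 12-month replicate 2. In whole liver, fewer cells of a type and less RNA per cell cannot be told apart.

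The levels of the cell division genes were highest at 3 months, lower at 9 months and lower again at 12 and 18 months. At 24 months 3 of the 4 arrays lay in the range of 12 and 18 months, and the fourth lay between the arrays of 3 and 9 months. Across the 39 genes, the median difference from the 3-month mean was 0.03, -0.06 and 0.06 on the 3-month arrays and -0.56, -0.96 and -0.82 on the 9-month arrays. It was -1.23, -1.02 and -1.34 at 12 months and -1.68, -1.32 and -1.13 at 18 months. The 24-month arrays read -1.51, -0.24, -1.32 and -1.36, so replicate 2 stood apart from the other 3. The same median over all genes stayed between -0.1 and 0.07 on every array. For the 24 genes above background everywhere the differences between ages were smaller. Their medians were -0.56, -0.62 and -0.65 at 9 months, -1.09, -0.66 and -0.75 at 12 months, -0.82, -0.69 and -0.85 at 18 months and -0.72, -0.03, -0.96 and -0.78 at 24 months. In these genes the 9-month arrays lay just above those of 12 and 18 months, and 24-month replicate 2 lay within the 3-month arrays (-0.06 to 0.04). On replicate 2 of 24 months, 34 of the 39 genes had their highest level of that age and 14 their highest level of all 16 arrays.

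**Figure D1:**
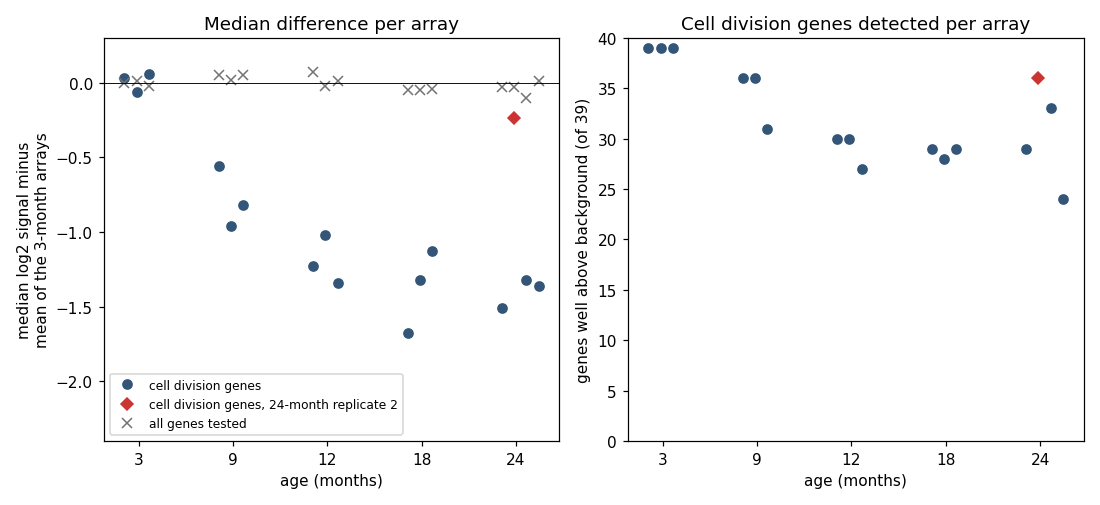
Left, the median over 39 cell division genes of the difference in log2 signal from the 3-month mean, for each array by age in months, with the same median over all genes as crosses. Right, the number of the 39 genes well above background on each array, from 39 at 3 months down to 24 on 24-month replicate 4. The diamond is 24-month replicate 2, at -0.24 and 36 genes.

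All 39 genes lay well above background on each 3-month array, which for 8 of them was the condition for being tested. Between 31 and 36 did so at 9 months, between 27 and 30 at 12 months, 28 or 29 at 18 months, and 29, 36, 33 and 24 on the arrays of 24 months. Of the other 31 genes, all were detected at 3 and 9 months, 26 to 28 at 12 months, 27 or 28 at 18 months, and 26, 31, 30 and 24 at 24 months. These 31 hold the 24 genes detected on every array. They also hold Ccna2, Ccnb2, Top2a, Bub1b and Ttk, which entered through 3 and 9 months alone, so their detection at these ages was tied to their selection. Replicates 3 and 4 of 24 months had nearly equal medians but different counts, and replicate 4 had the lowest share of all probes detected, 52.5%.

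For 24 against 3 months, 17 of the 39 genes were called, 17 lower and 0 higher, where 13.3% of all genes were called, 9.07% lower and 4.23% higher. The median log2 difference of the 39 was -0.94, beside -0.04 over all genes. Among the 31 genes that did not enter through 3 months alone, 14 were called and the median was -0.88. Of those 31, Ccna2, Ccnb2, Top2a, Bub1b and Ttk entered through 3 and 9 months alone, which also favoured a lower level at 24 months. Among the 24 genes above background on all 16 arrays 9 were called, all lower, and the median was -0.5. Without 24-month replicate 2 the count over the 39 was 22, with 11.5% of all genes called, and the median was -1.33. The 17 were Gmnn among the regulators of entry into replication, Rrm2 and Tk1 among the nucleotide enzymes, Ccna2, Cdk1, Plk1 and Melk for mitotic entry, and Aurka, Aurkb, Birc5, Kif20a, Kif2c and Ttk of the spindle and checkpoint. Both genes of mitotic exit (Cdc20 and Ube2c) and both of chromosome structure (Mki67 and Top2a) were also among them. Of the replication fork and nucleotide genes 2 of 10 were called, of the G1 to S regulators 1 of 5, against 4 of 8 for mitotic entry and 6 of 12 for spindle and checkpoint. The difference between these shares was not tested. With slide as a random block 0 of the 39 were called, where 1.44% of all genes were, and the median was -1.13. The 3-month arrays share 1 slide and the 24-month arrays lie on 3 others, so that in this comparison the slide and the age cannot be told apart. Leaving out 3-month replicate 1, 2 or 3 left 7, 7 or 6 calls, and leaving out 24-month replicate 1 or 4 left 8 or 11. Of the 17 calls, 9 were lost in over 50% of the alternatives tried for them (Aurka, Aurkb, Birc5, Gmnn, Kif2c, Melk, Mki67, Top2a and Ube2c). A scan session here means arrays whose scan dates share a year, a grouping made for these fits. Within session 1, which held all arrays of both ages, 6 were called, where 9.46% of all genes were. The 2 ages share no slide or scan day within it. With normexp background correction 3 were called, where 2.26% of all genes were.

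For 9 against 3 months, 0 of the 39 genes passed limma's test at the adjusted threshold and 16 had an unadjusted p under 0.05, where 5.13% of all genes were called, 3.2% lower and 1.94% higher. The median was -0.74, beside 0.04 over all genes. Among the 31 genes that did not enter through 3 months alone, 11 had an unadjusted p under 0.05 and the median was -0.67. In 29 of all 39, including genes that entered through 3 months alone, all 9-month arrays lay below all 3-month arrays, which was so for 18% of all genes. The counts that follow are over the same 39 genes and were not made for the 31 alone. For the genes that entered through 3 months alone, a lower level at 9 months was favoured by their selection. Fitted on these 2 ages alone, without the wider spread of the older groups, 22 were called lower, where 9.76% of all genes were. Within slide 1, which held the 3 arrays of 3 months and replicate 2 of 9 months, 25 were called lower against 9% of all genes. That fit assumes the lone 9-month array to vary like the 3-month arrays, and 3 were called with slide as a random block, where 9.56% of all genes were.

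For 12 against 9 months, 7 of the 39 were called, where 6.27% of all genes were. Ccne1 rose, and Ccna2, Cdk1, Kif20a, Plk1, Prc1 and Top2a fell, so 1 was higher and 6 were lower where 3.17% of all genes were called higher and 3.1% lower. Of those that fell, Ccna2 and Top2a entered the test through 3 and 9 months alone and Prc1 through 3 months alone. A lower level at 12 months was therefore favoured by their selection. Among the 24 genes above background on all 16 arrays 4 were called, 1 higher and 3 lower. Leaving out any of the 3 arrays of 9 months or replicate 4 of 12 months left 1 call, and leaving out replicate 3 of 12 months left 4. Within slide 2, which held 9-month replicates 1 and 3 and 12-month replicate 2, 12 were called, 8 of them lower, where 14.5% of all genes were called and 6.91% were called lower. That fit assumes the lone 12-month array to vary like those of 9 months, and it is the array least like the others of its age. With slide as a fixed block over 3, 9 and 12 months the count was 17, of which 15 were lower, and 30.6% of all genes were called, 14.3% lower.

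For 18 against 12 months 0 of the 39 passed limma's adjusted threshold, 1 had an unadjusted p under 0.05, and 1.38% of all genes were called, 0.316% lower and 1.07% higher. The median was -0.16, beside -0.06 over all genes. For 24 against 18 months 7 were called, a smaller share than the 25.8% of all genes. Foxm1, Mcm3, Mcm6, Melk and Prc1 were higher at 24 months. Cdc20 was lower, and so was Rrm2 on the probe that represents it. Of all genes, 10.8% were called higher and 15% lower. With slide as a random block 0 of the 39 were called for 24 against 18 months, where 4.53% of all genes were, and leaving out 18-month replicates 1, 3 or 4 left 4, 4 or 3. These ages share no slide, scan day or scan session.

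The comparison of 18 with 3 months was added after the data were seen, because it holds no 24-month array. There 22 of the 39 were called, 22 lower and 0 higher, where 23.2% of all genes were called, 11.9% lower and 11.3% higher. Of these calls, 5 (Aurkb, Kif2c, Mcm6, Melk and Prc1) were of genes that entered through 3 months alone, and among the other 31 genes 17 were called, with a median of -1.04. The median of the 39 was -1.34, beside -0.05 over all genes. In 34 of all 39, including genes that entered through 3 months alone, all 18-month arrays lay below all 3-month arrays, as in 33.1% of all genes. With slide as a random block 1 of the 39 was called, where 1.23% of all genes were, and with scan session as a block 10 were, where 12.1% were. Each of these ages lies on a single slide, so slide and age cannot be told apart. Over the 5 ages at once, 24 of the 39 differed by limma's F test, where 37.4% of all genes did, and 7 did with slide as a random block, where 22.5% of all genes did.

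**Figure D2:**
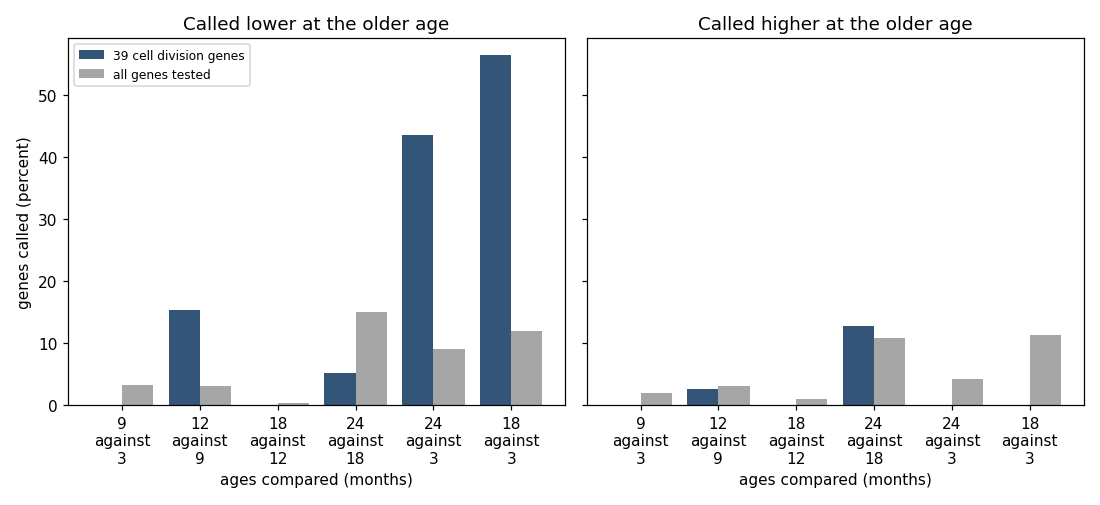
Percentage of genes called lower (left) and higher (right) at the older age in each comparison, for the 39 cell division genes and for all genes tested. The bars of the cell division genes are 17 of 39 for 24 against 3 months and 22 of 39 for 18 against 3 months on the left, and 0 for both on the right.

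For 9 against 3 months the median log2 difference was -1.67 for T and NK cell markers, with 9 of 9 lower. It was -3.35 for neutrophil markers, with 5 of 6 lower. For 18 against 3 months these medians were -1.84, with 8 of 9 lower, and -2.33, with 5 of 6 lower. For 12 against 9 months the median was 0.87 for T and NK cell, 0.65 for neutrophil and 0.44 for erythroid markers, beside -0.41 for the cell division genes. At that step 3 of 9, 2 of 6 and 0 of 4 of these markers were lower, and none was called. The summed linear level of 9 measured T and NK cell markers (of 10 listed) was 17.5 to 20.8 at 3 months, 5.44 to 5.96 at 9 months, 5.49 to 9.69 at 12 months, 4.96 to 5.74 at 18 months and 12.3 to 29.9 at 24 months. Among the 24-month arrays it was 29.9 on replicate 2 and 29.4 on replicate 3, while the cell division genes were nearest to the 3-month level on replicate 2. Between 3 and 24 months the 9 T and NK cell markers moved in both directions, with 1 called higher and 2 called lower. Their median log2 difference was 0.6, with 3 of 9 lower. The sum of 6 neutrophil markers (of 7) was 15.8 to 18.5 at 3 months and 1.19 to 3.99 at 9, 12 and 18 months. At 24 months it read 12.2, 3.5, 51.3 and 1.69, highest on replicate 3, where S100a8 and S100a9 carried it. Gene by gene, all 6 had a lower mean at 24 than at 3 months. Of these, 3 were called lower and 0 higher, with a median log2 difference of -1.3. The 6 stellate cell and fibroblast markers summed to 32.7 to 37.7 at 3 months, 14.7 to 16.9 at 18 months and 20.8 to 22.8 at 24 months. The 7 macrophage and Kupffer cell markers summed to 135 to 144 at 3 months, 96.9 to 121 at 18 months and 150 to 197 at 24 months, a sum carried by Clec4f. One by one, 3 of the 7 were called higher and 0 lower for 18 against 3 months, with a median log2 difference of 0.14. Erythroid markers (4 of 6) summed to 10.4 to 11.5 at 3 months, 8.73 to 15.4 at 9 months and 7.64 to 9.27 at 18 months. They spanned 9.54 to 40.1 at 12 months, highest on replicate 2, and 6.57 to 32.6 at 24 months, highest on replicate 3. Cholangiocyte markers (4 of 5) summed to 1.71 to 2.11 at 3 months, 2.1 to 3.26 at 9 months, 1.28 to 1.71 at 12 months, 1.53 to 1.81 at 18 months and 2.65 to 3.45 at 24 months. Their median log2 difference was -0.85 for 12 against 9 months, with 1 of 4 called lower, and 1.39 for 24 against 18 months, with 3 of 4 called higher. Endothelial markers (5 of 5) summed to between 59.7 and 75.5 at all ages, a sum carried by Kdr. One by one, 2 of the 5 were called lower and 0 higher for 9 against 3 and for 18 against 3 months. For 24 against 3 months 1 was called higher and 1 lower, and 3 differed over the 5 ages by limma's F test. B cell markers (2 of 6) summed to between 0.0634 and 0.25 at all ages. All 7 hepatocyte markers were measured and summed to 3840 to 6560 over the 16 arrays. No measured marker was at 0, and the part of these cells in the results was not tested.

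Promoter windows from RefSeq (GRCr8, 250 bases before to 50 after the start of the gene) matched 35 of the 44 genes. Ccna2, Ccnd1, Ccne2, Foxm1, Mcm4, Rrm2, Aurkb, Cdc6 and Ube2c had no entry. Cell cycle promoters are known for CCAAT boxes bound by NF-Y, for the cell cycle homology region (CHR, TTTGAA) bound by the DREAM and MuvB complexes, and for E2F sites in genes of replication. On either strand, CCAAT was found in 23 of the 35 windows and in 37.5% of all 33469 windows, and at least 2 copies in 16 of the 35 and in 11.2% of all. TTTGAA was found in 14 of the 35 and in 18.3% of all, and both motifs in 11 of the 35 and in 7.41% of all. An E2F sequence (TTTCCCGC, TTTGGCGC or TTTCGCGC) stood in 10 of the 35 and in 1.72% of all. These are matches of letters and not measured binding sites. TTTGGCGC can overlap its own reverse strand, and both copies are then counted.

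The 150 bases before the start are shown for 5 genes, which cover mitotic entry, exit, chromosome structure and the replicative helicase. Each runs 5′ to 3′ in the direction of the gene, and capitals mark the CCAAT box, the CHR and the E2F sequences on either strand. On the reverse strand the box reads ATTGG and the CHR reads TTCAAA.
On GRCr8 the stretches are Cdk1 chr20:19265143-19265292 on the plus strand, Ccnb2 chr8:79981659-79981808 on the minus strand, Cdc20 chr5:137255800-137255949 on the minus strand, Top2a chr10:84473094-84473243 on the minus strand, Mcm7 chr12:22163179-22163328 on the minus strand.
Cdk1: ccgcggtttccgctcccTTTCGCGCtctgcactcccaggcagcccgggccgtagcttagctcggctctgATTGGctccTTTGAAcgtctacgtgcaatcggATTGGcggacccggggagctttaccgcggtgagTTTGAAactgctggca
Ccnb2: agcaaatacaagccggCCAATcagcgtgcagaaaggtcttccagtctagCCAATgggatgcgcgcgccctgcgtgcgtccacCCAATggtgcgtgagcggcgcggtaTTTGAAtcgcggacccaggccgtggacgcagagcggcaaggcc
Cdc20: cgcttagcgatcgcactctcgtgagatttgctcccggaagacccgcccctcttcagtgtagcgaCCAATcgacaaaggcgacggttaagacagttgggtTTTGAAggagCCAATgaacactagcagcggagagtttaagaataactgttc
Top2a: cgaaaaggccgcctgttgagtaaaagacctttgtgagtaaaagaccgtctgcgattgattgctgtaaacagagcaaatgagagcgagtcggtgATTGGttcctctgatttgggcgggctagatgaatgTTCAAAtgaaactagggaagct
Mcm7: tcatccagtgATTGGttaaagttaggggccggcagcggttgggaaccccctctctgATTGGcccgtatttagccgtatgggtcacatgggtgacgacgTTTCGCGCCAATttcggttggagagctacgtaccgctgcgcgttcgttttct
Cdk1 carried all 3 kinds of motif, Ccnb2, Cdc20 and Top2a carried CCAAT with TTTGAA, and Mcm7 carried CCAAT with an E2F sequence that runs into one of its CCAAT boxes.

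**Figure D3:**
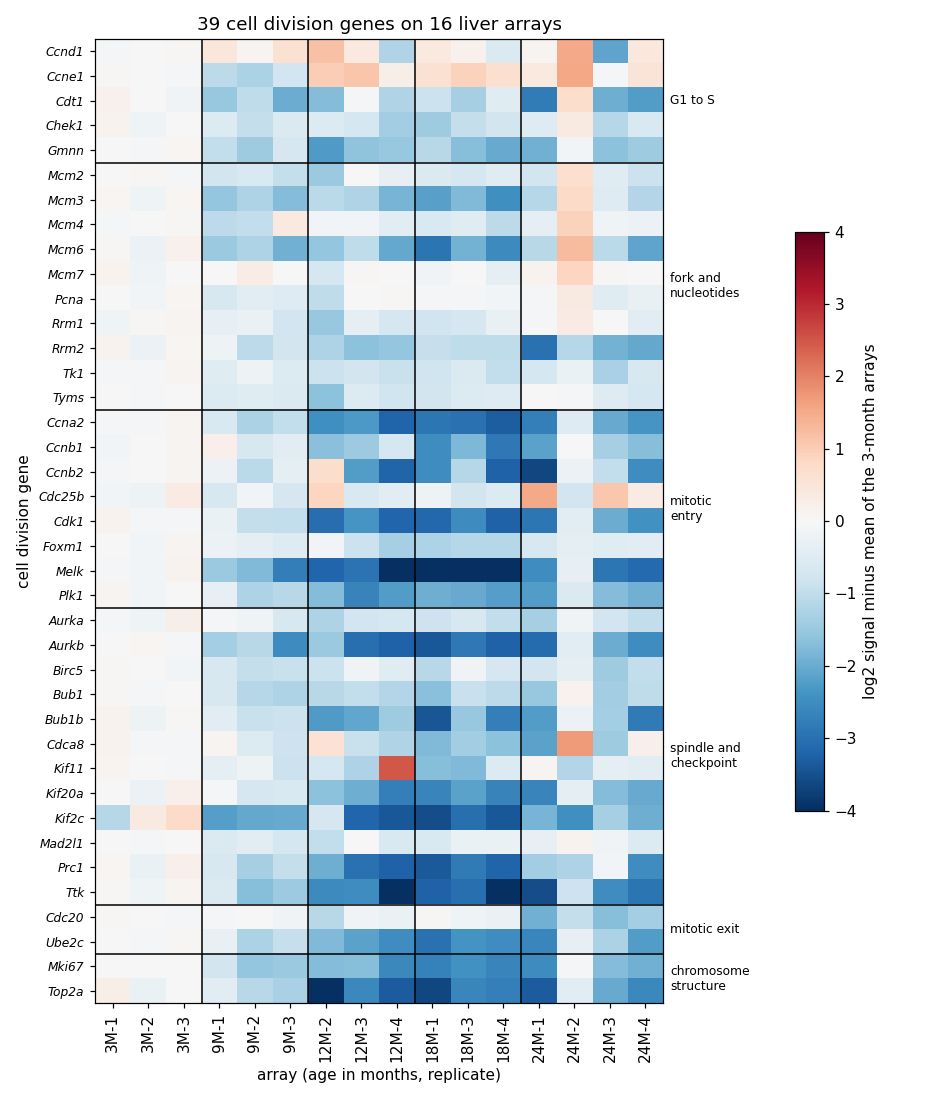
Difference in log2 signal from the mean of the 3-month arrays for 39 cell division genes (rows, by role) on 16 arrays (columns, by age in months and replicate). Colours end at -4 and 4, and blue is lower than at 3 months. Rows of mitotic entry, spindle and chromosome structure are mostly blue from 12 months on, while 24-month replicate 2 is pale or red in most rows.

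Cyclins D and E with their kinases start the cycle, Cdt1 and Cdc6 load the MCM helicase, geminin blocks reloading, and Chek1 halts the cycle when replication is disturbed. Ccne1, cyclin E1, read -0.77, -0.82 and -0.85 at 3 months, -1.85, -2.09 and -1.59 at 9 months, 0.18, 0.31 and -0.59 at 12 months, -0.19, 0.11 and -0.17 at 18 months and -0.41, 0.73, -0.9 and -0.31 at 24 months. It was lowest on the 9-month arrays, which overlapped no other age, and the arrays of 12, 18 and 24 months lay above those of 3 months with the exception of 24-month replicate 3. From 9 to 12 months it rose 3.51-fold (log2 difference 1.81, SE 0.33, adjusted p = 0.0079 by limma), and this call was kept under all 20 alternatives tried for it. For 9 against 3 months the log2 difference was -1.03, with an adjusted p of 0.094.

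Gmnn, which encodes the licensing inhibitor geminin, read -1.66, -1.7 and -1.55 at 3 months, -2.62, -3.05 and -2.3 at 9 months, -3.91, -3.26 and -3.17 at 12 months, -2.75, -3.33 and -3.65 at 18 months and -3.56, -1.75, -3.27 and -3.05 at 24 months. Every array older than 3 months lay below the 3-month arrays, though 24-month replicate 2 was close to them. Geminin was 2.41-fold lower at 24 than at 3 months (SE 0.37 on the log2 scale, adjusted p = 0.0345) and 3.05-fold lower at 18 months (adjusted p = 0.00984). The first of these calls was lost in 16 of 20 alternatives, the second in 2 of 17. Chek1, the replication checkpoint kinase, read -2.19, -2.49 and -2.31 at 3 months, -2.89, -3.27 and -2.91 at 9 months, -2.88, -3.04 and -3.72 at 12 months, -3.76, -3.29 and -3.07 at 18 months and -2.84, -1.98, -3.47 and -2.95 at 24 months. Its 18-month arrays lay below the 3-month arrays and 24-month replicate 2 above them. The fall from 3 to 18 months was 2.06-fold with an adjusted p of 0.0305, and this call was lost in 9 of 17 alternatives. The difference at 24 months had an adjusted p of 0.331.

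Ccnd1, the cyclin D1 gene, gave 3.33, 3.36 and 3.44 at 3 months, 3.82, 3.5 and 3.98 at 9 months, 4.54, 3.77 and 2.17 at 12 months, 3.78, 3.54 and 2.8 at 18 months and 3.5, 4.88, 1.28 and 3.79 at 24 months. Its means stayed between 3.36 and 3.76 at all 5 ages, and its spread widened from an SD of 0.06 at 3 months to 1.21 at 12 months and 1.51 at 24 months, where replicate 2 was highest and replicate 3 lowest. No comparison called it, and for 24 against 3 months the log2 difference was -0.01 (SE 0.67). Cdt1, the licensing factor, passed the filter through 3 months alone, with means of -3.5 ± 0.17 at 3 months and -5.07 ± 1.56 at 24 months (SD, n = 3 and 4), and was called in no comparison. It was well above background on 0 of 3 arrays at 9 months, 1 of 3 at 12 months, 2 of 3 at 18 months and 1 of 4 at 24 months, and 24-month replicate 2, at -2.8, was its highest array.

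The MCM proteins form the helicase that opens the replication fork, Pcna is the clamp of the polymerases, and ribonucleotide reductase (Rrm1 and Rrm2), thymidylate synthase (Tyms) and thymidine kinase (Tk1) supply deoxynucleotides. Rrm2, the regulated subunit of the reductase, read -2.47, -2.82 and -2.51 at 3 months, -2.81, -3.66 and -3.33 at 9 months, -3.83, -4.25 and -4.15 at 12 months, -3.52, -3.62 and -3.63 at 18 months and -5.59, -3.75, -4.48 and -4.66 at 24 months on the probe that represents it. The 24-month arrays lay below those of 18 and 3 months. The fall from 3 to 24 months was 4.05-fold (log2 -2.02, SE 0.32, adjusted p = 0.00116), on a gene well above background on 1 of 4 arrays at 24 months and 0 of 3 at 12 months. With each array not well above background set to at least the lowest signal among its probes that were, here called the limit of the array, the fall was 2.78-fold. For 24 against 18 months this probe fell by 1.03 on the log2 scale (adjusted p = 0.031), while the second Rrm2 probe rose by 1.1, so no direction is given for that step. From 3 to 24 months the 2 probes gave -2.02 and -2.27.

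Tk1, which salvages thymidine in replicating cells, gave -1.2, -1.22 and -1.04 at 3 months, -1.64, -1.34 and -1.69 at 9 months, -2.01, -1.87 and -2.03 at 12 months, -1.95, -1.72 and -2.12 at 18 months and -1.86, -1.41, -2.44 and -1.8 at 24 months. All arrays older than 3 months lay below the 3-month arrays. The fall was 1.65-fold by 24 months (adjusted p = 0.0245) and 1.71-fold by 18 months (adjusted p = 0.0162). The file places this probe on chromosome 3 of rn4, whereas RefSeq places Tk1 on chromosome 10 of GRCr8. Which transcript it reads was not tested.

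Mcm3, a subunit of the helicase ring, read -0.65, -0.9 and -0.65 at 3 months, -2.27, -1.95 and -2.45 at 9 months, -1.81, -1.94 and -2.58 at 12 months, -2.9, -2.49 and -3.19 at 18 months and -1.86, 0.04, -1.26 and -1.9 at 24 months. It was high at 3 months and on 24-month replicate 2, lower on all other arrays, and lowest at 18 months, where no array overlapped 3 or 24 months. Between 3 and 18 months it fell 4.36-fold (adjusted p = 0.00231), and between 18 and 24 months it rose 3.06-fold (SE 0.38 on the log2 scale, adjusted p = 0.00665). For 9 against 3 months its log2 difference was -1.49, with an adjusted p of 0.0503. Its second probe gave 2.07 where this one gave 1.61 for 24 against 18 months.

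Mcm6, another ring subunit, read -2.61, -2.89 and -2.51 at 3 months, -4.14, -3.92 and -4.58 at 9 months, -4.23, -3.68 and -4.73 at 12 months, -5.6, -4.56 and -5.21 at 18 months and -3.77, -1.4, -3.76 and -4.79 at 24 months. Replicate 2 of 24 months was its highest array of all, and the 24-month group spanned the whole range from above 3 months to within 18 months. It was well above background on 3 of 3 arrays at 3 months, 0 of 3 at 18 months and 3 of 4 at 24 months. Fold changes against a group with no array above background are given as lower limits, the mean of the brighter group against the mean of the dimmer group with each array set to at least its limit. On that basis Mcm6 was at least 3.5-fold lower at 18 than at 3 months (adjusted p = 0.0115) and at least 2.07-fold higher at 24 than at 18 months (adjusted p = 0.0445). The call for 24 against 18 months was lost in 12 of 18 alternatives, leaving out 24-month replicate 1, 2 or 3 among them.

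Tyms, the thymidylate synthase gene, read 0.11, 0.02 and 0.1 at 3 months, -0.48, -0.42 and -0.51 at 9 months, -1.55, -0.47 and -0.71 at 12 months, -0.67, -0.48 and -0.45 at 18 months and 0.08, 0.04, -0.45 and -0.61 at 24 months. Arrays of 9, 12 and 18 months lay below those of 3 months, and 24-month replicates 1 and 2 lay within them. It differed over the 5 ages by limma's F test (adjusted p = 0.0404) and in no pair of ages compared, and the F test call was lost in 14 of 27 alternatives, leaving out any array of 3, 9 or 18 months among them. Pcna, which binds the polymerases to DNA, gave 2.15, 2.02 and 2.21 at 3 months, 1.5, 1.67 and 1.6 at 9 months, 1.12, 2.12 and 2.17 at 12 months, 2.06, 2.07 and 2.01 at 18 months and 2.06, 2.49, 1.65 and 1.82 at 24 months, with 9-month arrays below and 18-month arrays close to those of 3 months. It was called in no comparison, and its difference for 24 against 3 months was -0.12 on the log2 scale (SE 0.24).

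Mcm7 read -1.22, -1.51 and -1.32 at 3 months, -1.37, -1.06 and -1.38 at 9 months, -2.05, -1.29 and -1.32 at 12 months, -1.49, -1.33 and -1.7 at 18 months and -1.21, -0.48, -1.3 and -1.35 at 24 months, and apart from 12-month replicate 2 and 24-month replicate 2 its arrays lay between -1.7 and -1.06. The means of Mcm2, Mcm4 and Rrm1 differed between 24 and 3 months by -0.35, 0.04 and -0.04 on the log2 scale, with no call. A second probe of Mcm4 gave -1.1 for that comparison, and the 3 probes of Rrm1 spanned -0.04 to 0.45.

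Mitotic entry turns on Cdk1 with its cyclins, on Plk1, and on the transcription factor Foxm1 that induces many of their genes. Cdk1, the kinase that drives mitosis, read 1.89, 1.66 and 1.69 at 3 months, 1.48, 0.8 and 0.75 at 9 months, -1.3, -0.6 and -1.43 at 12 months, -1.39, -0.78 and -1.49 at 18 months and -1.15, 1.29, -0.25 and -0.66 at 24 months on a probe at chr20:20043755-20043814 of rn4. The 3-month and 9-month arrays lay above all arrays of 12 and 18 months, and at 24 months replicate 2 lay between the 9-month arrays while the other 3 lay below them. Cdk1 fell 4.35-fold from 9 to 12 months (log2 -2.12, SE 0.47, adjusted p = 0.0202). It was 3.84-fold lower at 24 than at 3 months (adjusted p = 0.0103) and 7.83-fold lower at 18 months (adjusted p = 0.000687). The 18-month call was kept in 16 of 17 alternatives, the 24-month call in 15 of 20 and the step from 9 to 12 months in 14 of 20.

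Ccna2, cyclin A2, which works with Cdk1 and with Cdk2 in replication, read -1.2, -1.22 and -1.04 at 3 months, -1.76, -2.42 and -2.15 at 9 months, -3.6, -3.45 and -4.37 at 12 months, -4.04, -4.13 and -4.47 at 18 months and -3.91, -1.69, -3.19 and -3.51 at 24 months. The ages of 3, 9 and 12 months followed one another without overlap, 12 and 18 months overlapped, and 24-month replicate 2 lay between the arrays of 3 and 9 months. The difference from 3 months was 3.78-fold at 24 months (log2 -1.92, SE 0.4, adjusted p = 0.00648) and 8.34-fold at 18 months (adjusted p = 0.000306), both lower. From 9 to 12 months it fell 3.25-fold (adjusted p = 0.0348). It was well above background on 2 of 3 arrays at 12 months, 1 of 3 at 18 months and 3 of 4 at 24 months, and setting the other arrays to their limits left these folds as they were.

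Ccnb1, cyclin B1, the partner of Cdk1 in mitosis, read -1.43, -1.32 and -1.22 at 3 months, -1.11, -1.97 and -1.78 at 9 months, -2.99, -2.77 and -2.02 at 12 months, -3.8, -3.12 and -4.18 at 18 months and -3.45, -1.35, -2.65 and -3.02 at 24 months. The 3-month and 9-month arrays overlapped, 18 months had the lowest mean, and 24-month replicate 2 lay among the 3-month arrays. It was 5.19-fold lower at 18 than at 3 months (adjusted p = 0.00216), and at 24 months its log2 difference from 3 months was -1.3 with an adjusted p of 0.057. Ccnb2, cyclin B2, read -2.39, -2.31 and -2.2 at 3 months, -2.55, -3.37 and -2.7 at 9 months, -1.6, -4.54 and -5.5 at 12 months, -4.79, -3.43 and -5.54 at 18 months and -5.94, -2.54, -3.29 and -4.78 at 24 months. Its arrays scattered widely within 12, 18 and 24 months, from -1.6 on 12-month replicate 2 to -5.94 on 24-month replicate 1, and it was called in no comparison.

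Plk1, the polo-like kinase of mitotic entry and spindle assembly, read 0.86, 0.64 and 0.73 at 3 months, 0.42, -0.48 and -0.36 at 9 months, -1.01, -1.92 and -1.49 at 12 months, -1.22, -1.27 and -1.45 at 18 months and -1.51, 0.17, -0.99 and -1.19 at 24 months. The 3-month arrays lay above all others, and 24-month replicate 2 lay among the 9-month arrays. Plk1 fell 3.08-fold between 3 and 24 months (log2 -1.62, SE 0.34, adjusted p = 0.00658), a call kept in 19 of 20 alternatives. It fell 2.52-fold from 9 to 12 months (adjusted p = 0.0457, lost in 15 of 20) and was 4.15-fold lower at 18 than at 3 months (adjusted p = 0.00144).

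Foxm1, the transcription factor of the G2 and M phase genes, read -0.36, -0.48 and -0.26 at 3 months, -0.62, -0.77 and -0.89 at 9 months, -0.47, -1.24 and -1.71 at 12 months, -1.59, -1.5 and -1.5 at 18 months and -1, -0.76, -0.85 and -0.78 at 24 months. Its 24-month arrays lay close together, with an SD of 0.11, between 3 and 18 months, and replicate 2 did not stand apart there. It was 2.24-fold lower at 18 than at 3 months (adjusted p = 0.00256) and 1.6-fold higher at 24 than at 18 months (adjusted p = 0.0297). With scan session as a block the last difference turned to -0.32, and 24 and 18 months share no session.

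Melk, a kinase of dividing and progenitor cells, read -1.55, -1.59 and -1.34 at 3 months, -2.97, -3.26 and -4.27 at 9 months, -4.67, -4.43 and -5.87 at 12 months, -5.56, -5.78 and -6.67 at 18 months and -3.97, -1.81, -4.38 and -4.61 at 24 months. It was well above background on all 3-month arrays, on 2 of 3 at 9 months, on 0 of 3 at 12 and at 18 months and on 2 of 4 at 24 months. The 18-month level was at least 7.93-fold below that of 3 months (adjusted p = 0.000272), and the 24-month level was at least 1.72-fold above that of 18 months (adjusted p = 0.00994). Against 3 months it was 4.6-fold lower at 24 months (adjusted p = 0.0233, lost in 11 of 19 alternatives), or 3.96-fold with undetected arrays at their limit, with replicate 2, at -1.81, just under the 3-month arrays. Cdc25b, the phosphatase that activates Cdk1, gave -3.29, -3.38 and -2.85 at 3 months, -3.82, -3.27 and -3.84 at 9 months, -2.32, -3.77 and -3.61 at 12 months, -3.38, -3.92 and -3.72 at 18 months and -1.67, -3.95, -2.09 and -2.85 at 24 months. It ran against the others at 24 months, where replicate 2 was its lowest array of that age and the other 3 lay at or above the 3-month arrays, and it was called in no comparison.

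The spindle genes divide into the chromosome passenger complex (Aurkb, Birc5, Cdca8), checkpoint kinases and adaptors (Ttk, Bub1, Bub1b, Mad2l1), motors and bundling proteins (Kif11, Kif20a, Kif2c, Prc1) and the centrosome kinase Aurka. Ttk, the kinase that starts the spindle checkpoint, read -0.98, -1.21 and -0.91 at 3 months, -1.61, -2.72 and -2.47 at 9 months, -3.58, -3.51 and -5.07 at 12 months, -4.28, -4.06 and -5.11 at 18 months and -4.57, -1.85, -3.53 and -3.94 at 24 months on a probe at chr8:88944528-88944587 of rn4. No array of another age reached the 3-month level, and 24-month replicate 2 lay among the 9-month arrays. Ttk was 5.43-fold lower at 24 months (log2 -2.44, SE 0.55, adjusted p = 0.00987) and 10.9-fold lower at 18 months (adjusted p = 0.00112) than at 3 months. It lay well above background on 2 of 3 arrays at 12 months, 1 of 3 at 18 months and 2 of 4 at 24 months, and with the other arrays at their limits the folds were 5.04 and 9.64.

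Kif20a, a kinesin of the central spindle, read -0.48, -0.72 and -0.31 at 3 months, -0.57, -1.16 and -1.12 at 9 months, -2.15, -2.44 and -3.25 at 12 months, -3.15, -2.63 and -3.17 at 18 months and -3.15, -0.89, -2.24 and -2.51 at 24 months. The 3-month and 9-month arrays overlapped, all arrays of 12 and 18 months lay below them, and so did 24-month replicates 1, 3 and 4. The fall was 3.16-fold from 9 to 12 months (adjusted p = 0.0415), 3.24-fold from 3 to 24 months (SE 0.41 on the log2 scale, adjusted p = 0.0152) and 5.59-fold from 3 to 18 months (adjusted p = 0.00148).

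Aurkb, the kinase of the passenger complex, read -3.49, -3.37 and -3.52 at 3 months, -4.83, -4.58 and -5.98 at 9 months, -4.93, -6.47 and -6.7 at 12 months, -6.86, -6.33 and -6.71 at 18 months and -6.55, -3.92, -5.43 and -5.95 at 24 months. It lay well above background on all 3-month arrays, on 1 array each at 9 and 24 months and on none at 12 and 18 months. At 18 months it was at least 2.03-fold lower than at 3 months (adjusted p = 0.00189), where 0 of 3 arrays were detected. For 24 against 3 months the log2 difference was -2 (adjusted p = 0.028), but with the 3 undetected arrays of 24 months at their limit the level was 1.6-fold lower, and replicate 2 lay nearest to the 3-month arrays. With normexp background correction the 24-month difference was 0.12, against -2 in the fit reported. Birc5, which encodes the passenger protein survivin, read -0.03, -0.06 and -0.19 at 3 months, -0.74, -1.05 and -0.97 at 9 months, -0.94, -0.23 and -0.57 at 12 months, -1.21, -0.24 and -0.77 at 18 months and -0.84, -0.46, -1.51 and -1.06 at 24 months. Its arrays at 9 months and later lay below those of 3 months, and replicate 2 was the highest of the 24-month arrays. The fall from 3 to 24 months was 1.84-fold (adjusted p = 0.0368), and this call was lost in 14 of 20 alternatives.

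Aurka, the centrosome kinase, read -1.94, -2.04 and -1.65 at 3 months, -1.95, -2.06 and -2.52 at 9 months, -3.1, -2.65 and -2.59 at 12 months, -2.7, -2.52 and -2.86 at 18 months and -3.22, -2.01, -2.66 and -2.85 at 24 months. The 9-month arrays overlapped those of 3 months, and so did 24-month replicate 2. It fell 1.76-fold by 24 months (adjusted p = 0.0424, lost in 16 of 20 alternatives) and 1.76-fold by 18 months (adjusted p = 0.0372, lost in 11 of 17). Prc1, which bundles the central spindle, read -3.34, -3.7 and -3.22 at 3 months, -4.07, -4.74 and -4.36 at 9 months, -5.36, -6.41 and -6.64 at 12 months, -6.77, -6.25 and -6.61 at 18 months and -4.81, -4.65, -3.54 and -5.89 at 24 months. It was well above background on all arrays of 3 months alone, with 1 array each at 9 and 24 months and none at 12 and 18 months. At 18 months it was at least 2.08-fold below 3 months (adjusted p = 0.000432) and at 12 months at least 1.01-fold below 9 months (adjusted p = 0.041). Its higher level at 24 than at 18 months passed the test (adjusted p = 0.00701), but the 24-month mean did not exceed the background limit of the 18-month arrays, so no fold is given.

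Bub1, a checkpoint kinase, read -0.53, -0.67 and -0.58 at 3 months, -1.24, -1.74 and -1.81 at 9 months, -1.7, -1.59 and -1.76 at 12 months, -2.27, -1.49 and -1.63 at 18 months and -2.11, -0.45, -1.97 and -1.61 at 24 months. All arrays of 9 months and later lay below the 3-month arrays except 24-month replicate 2, the highest of the 16. It was 2.31-fold lower at 18 months (adjusted p = 0.0225, lost in 8 of 17 alternatives), while for 24 against 3 months the adjusted p was 0.0719. Bub1b, its relative BubR1, read -2.11, -2.43 and -2.18 at 3 months, -2.69, -3.14 and -3.1 at 9 months, -4.51, -4.33 and -3.66 at 12 months, -5.66, -3.77 and -4.97 at 18 months and -4.47, -2.49, -3.59 and -5.08 at 24 months. The 24-month arrays lay below the 3-month arrays, with replicate 2 closest. Of its arrays, 1 of 3 at 12 and at 18 months and 2 of 4 at 24 months lay well above background. It was 5.89-fold lower at 18 months (adjusted p = 0.00517), or 4.3-fold with undetected arrays at their limit, and the log2 difference at 24 months was -1.67 (adjusted p = 0.05 after rounding, not under the threshold).

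Kif2c, a kinesin that takes microtubules apart at the centromere, read -4.42, -2.93 and -2.54 at 3 months, -5.49, -5.33 and -5.3 at 9 months, -3.96, -6.46 and -6.69 at 12 months, -6.83, -6.3 and -6.67 at 18 months and -5.14, -5.73, -4.62 and -5.23 at 24 months. It lay well above background on 3 of 3 arrays at 3 months, 1 of 3 at 12 months and no other array. It was at least 1.87-fold lower at 24 months (adjusted p = 0.042) and at least 2.27-fold lower at 18 months (adjusted p = 0.00174) than at 3 months. Replicate 2 was the lowest of its 24-month arrays, unlike in most genes, and without it the 24-month call was lost. Mad2l1, the checkpoint protein Mad2, gave -1.16, -1.25 and -1.16 at 3 months, -1.76, -1.63 and -1.88 at 9 months, -2.19, -1.2 and -1.79 at 12 months, -1.81, -1.45 and -1.45 at 18 months and -1.51, -1.05, -1.33 and -1.73 at 24 months. Its 9-month arrays lay below those of 3 months, its 24-month arrays overlapped them, and it was called in no comparison.

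Cdca8 and Kif11, both kept through 3 months alone, were called in no comparison. Cdca8, the passenger protein borealin, had its highest array in 24-month replicate 2, at -1.81 against -3.52 ± 0.11 at 3 months (SD, n = 3). Kif11, the motor that separates the spindle poles, was highest on 12-month replicate 4, at -1.26 where the other 2 arrays of that age read -4.45 and -4.98.

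Cdc20, the activator of the anaphase-promoting complex, held its level to 18 months. It read 0.32, 0.3 and 0.22 at 3 months, 0.2, 0.3 and 0.13 at 9 months, -0.83, 0.14 and 0 at 12 months, 0.33, 0.12 and 0.01 at 18 months and -1.64, -0.66, -1.43 and -1.08 at 24 months on a probe at chr5:138913267-138914237 of rn4. The arrays of 3, 9 and 18 months overlapped, 12-month replicate 2 was lower, and all 4 arrays of 24 months lay below all of 3, 9 and 18 months. Replicate 2 of 24 months was the highest of its age here too, but did not reach the 3-month arrays. Cdc20 fell 2.8-fold between 3 and 24 months (log2 -1.48, SE 0.24, adjusted p = 0.00118), a call kept in 19 of 20 alternatives. It fell 2.57-fold between 18 and 24 months (adjusted p = 0.00092), kept in 17 of 19, and lost with slide as a random block or scan session as a fixed block. For 9 against 3 months its log2 difference was -0.07 (SE 0.25).

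Ube2c, the ubiquitin-conjugating enzyme that works with the same complex, read -0.87, -0.98 and -0.85 at 3 months, -1.2, -2.18 and -1.82 at 9 months, -2.68, -3.05 and -3.4 at 12 months, -3.89, -3.29 and -3.4 at 18 months and -3.51, -1.23, -2.17 and -3.13 at 24 months. Its ages were ordered as for Cdk1, with 3 months above 9 months, 9 above 12 months, and 24-month replicate 2 among the 9-month arrays. It was 3.05-fold lower at 24 months (SE 0.43 on the log2 scale, adjusted p = 0.0235, lost in 11 of 19 alternatives) and 6.16-fold lower at 18 months (adjusted p = 0.00128) than at 3 months.

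Mki67, the proliferation marker Ki-67 that coats mitotic chromosomes, read 0.11, 0.1 and 0.14 at 3 months, -0.61, -1.43 and -1.36 at 9 months, -1.61, -1.59 and -2.47 at 12 months, -2.58, -2.31 and -2.53 at 18 months and -2.39, 0.05, -1.62 and -1.81 at 24 months on a probe that spans chr1:195310355-195313039 of rn4. The 3-month arrays agreed within an SD of 0.02, and only 24-month replicate 2 came near them. Its fall was 6-fold by 18 months (log2 -2.58, SE 0.46, adjusted p = 0.00156) and 2.95-fold by 24 months (adjusted p = 0.03). The second call was lost in 15 of 20 alternatives and the first in 2 of 17.

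Top2a, the topoisomerase that untangles replicated chromosomes, read -1.03, -1.55 and -1.24 at 3 months, -1.73, -2.39 and -2.57 at 9 months, -5.41, -3.84 and -4.59 at 12 months, -4.91, -3.88 and -3.99 at 18 months and -4.6, -1.68, -3.29 and -3.85 at 24 months on a probe at chr10:87771459-87771518 of rn4. Arrays of 3 months lay highest, those of 9 months next, and all arrays of 12 and 18 months below both. Replicate 2 of 24 months lay between 3 and 9 months, and the other 3 lay below all 9-month arrays. It fell 5.2-fold from 9 to 12 months (log2 -2.38, SE 0.59, adjusted p = 0.0325), and stood 4.24-fold lower at 24 months (adjusted p = 0.0236, lost in 11 of 19 alternatives) and 7.92-fold lower at 18 months (adjusted p = 0.00292) than at 3 months. It was well above background on 1 of 3 arrays at 12 and at 18 months and on 2 of 4 at 24 months. With the other arrays at their limits the 3 folds were 4.03, 3.98 and 7.54.

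**Figure D4:**
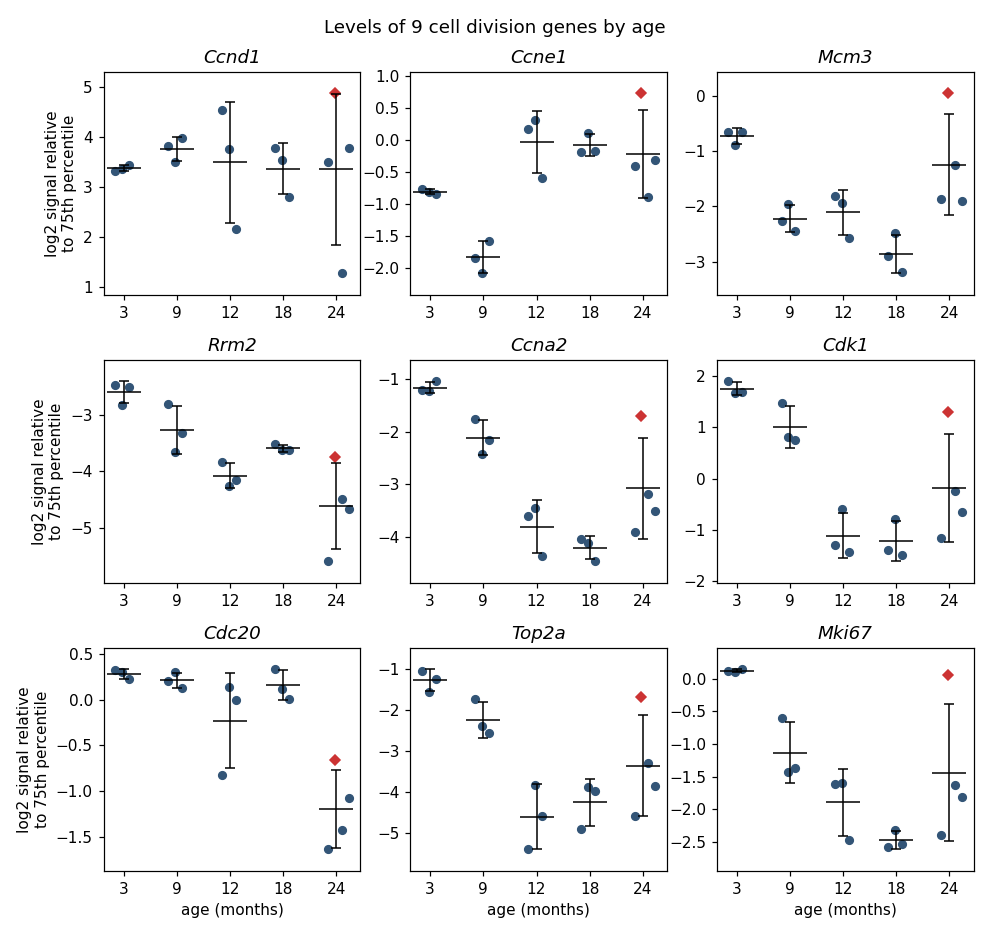
Log2 signal relative to the 75th percentile for 9 cell division genes by age in months, each point 1 array, with the mean and SD of each age as bars and 24-month replicate 2 as a diamond. Cdk1, Ccna2, Top2a and Mki67 are lower from 12 months on apart from that array, Cdc20 is lower at 24 months alone, Ccne1 is lowest at 9 months, and Ccnd1 varies within ages.

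Of 99 other cell cycle gene names on a list that excludes the 44, 75 were measured. They passed the same filter, and those that entered through 3 months alone were not counted apart. For such genes a lower level at the older ages was built into their selection. For 24 against 3 months 18 of the 75 were called, 15 lower and 3 higher (Ccnf, Cdkn1c and Rb1), with a median log2 difference of -0.39. That is 24% of the 75, beside 13.3% of all genes. For 18 against 3 months 37 were called, 33 lower and 4 higher (Cdc25a, Cdk2, Cdkn1c and Ncapd2), which is 49.3% beside 23.2% of all genes. For 9 against 3 months 8 of the 75 were called, all lower, beside 5.13% of all genes. For 12 against 9 months 7 were called, with Cdk2, Cdkn2d, Mcm10, Orc2 and Skp2 higher and Cdkn1a and Ckap2 lower, or 9.33% beside 6.27%. For 18 against 12 months 0 were called by limma (11 with an unadjusted p under 0.05), beside 1.38% of all genes. For 24 against 18 months 10 were called, 13.3% of the list where 25.8% of all genes were. In that last step Ccnd2, Dsn1, Kif4a, Lig1 and Orc6 were higher and Cdc25a, Cdkn2a, Cdkn2b, Cks2 and Ncapd2 lower. These names complete small counts and were chosen after their values were seen.

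Among the other mitosis genes 10 of 30 were called for 24 against 3 months, 9 of them lower, with a median of -0.95, and among the other licensing and fork genes 3 of 25, all lower, with a median of -0.26. Kif22, a chromosome-arm kinesin, was 5.47-fold lower at 24 than at 3 months (adjusted p = 0.0125), and Gins3, of the fork helicase complex, was at least 1.72-fold lower (adjusted p = 0.00182). At 9 months Incenp, the scaffold of the passenger complex, was 2.37-fold lower than at 3 months (adjusted p = 0.02), and E2f8, a repressor of the E2F family, was at least 4.96-fold lower (adjusted p = 0.00917). For 24 against 18 months Ncapd2, a condensin subunit, was 2.67-fold lower (adjusted p = 9.76e-05) and Lig1, the ligase of replicating DNA, 1.57-fold higher (adjusted p = 0.000899).

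All 7 inhibitors of cyclin-dependent kinases on that list were measured. Cdkn1c (p57) was 2.8-fold higher at 24 than at 3 months (means of 1.73 and 0.24, adjusted p = 0.0119), and Cdkn2d (p19) was 1.63-fold lower (adjusted p = 0.00556). Cdkn1a (p21) fell 5.46-fold from 9 to 12 months (means of 4.93 and 2.48, adjusted p = 0.00892). At that step 1 of the 7 inhibitors was called lower and 1, Cdkn2d, higher. Cdk2, the kinase partner of cyclins E and A, rose 2.12-fold there (adjusted p = 0.00383), while Ccne1 was called higher and Ccna2 lower. Whether these changes are linked was not tested.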

How the data were processed

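Liver RNA of 16 samples was measured on one-colour arrays on 7 slides, and groups follow the stated age. Per the file headers, Agilent Feature Extraction 10.7.3.1 made the deposited processed signal, mean signal and background columns, which hold intensity values not normalized between arrays. Per the file headers, the flag columns for detection, saturation and outliers hold other values, neither signal nor ratio. The log2 values that the authors deposited for the whole series were normalized in a way not given in the sources used here, and served as an alternative.

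Each array's log2 processed signal was set relative to its own 75th percentile. Outlier spots were set to missing (79 probe values), and spots of a probe averaged. Probes entered when some age had every array well above background (25696 of 41012). The probe with the highest mean stood for a gene. Accessions matched 17974 probes to a RefSeq (GRCr8) gene, and 22976 kept the name in the files. Probe positions are those of the files (rn4).

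A mean per age was fitted across 21488 genes with limma 3.58.1 (R 4.3.3 with package data.table, version 1.17.8), two-sided, with Benjamini-Hochberg adjustment over all genes and a threshold of 0.05. The code was tested on simulated data. Errors are SD between arrays. In full were described the genes called in any comparison and 1 to 3 uncalled ones per role, by highest level. Other cell cycle genes were counted, with values for at most 4 per comparison, from those of smallest adjusted p. Where 5 or fewer were called in a direction they were also named, after their values were seen. The members, gene lists and markers were chosen with earlier results of these data known. The comparison of 18 with 3 months and fits within a scan day or session were added after seeing the data, as were folds with undetected arrays set to the limit of their array. Figures used Python 3.11.15, matplotlib 3.10.9 and pandas 2.3.3.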

Additional observations from a re-analysis of the deposited data

Results flagged for a closer look

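Among the 39 cell division genes at 24 months, 2 had 1 array far from the other 3 of its age, replicate 2 in both. Mcm4 read -2.2 there, with the others between -3.49 and -3.31. Mcm7 read -0.48, with the others between -1.35 and -1.21. The gap to the nearest array was 0.87 and 0.83 of the whole range. Chance alone marks about 1 in 20 such groups, and 2 of 39 is near that rate. The genes share their arrays, so these groups are not independent. Groups of 3 arrays were not tested.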

How the results depend on the processing

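The 18 against 12 months count was 0 in every alternative run. Other counts of called cell division genes moved, and the cause was not tested except where fewer genes or arrays entered. For 9 against 3 months 2 were called with quantile normalization, and as many with the values the authors deposited for the series. With normexp background correction (offset 50) 3 were called for 24 against 3 months, 1 for 12 against 9, 2 for 24 against 18, 9 for 18 against 3 and 7 over all ages. No filter gave 2 for 12 against 9 months. A filter on all 16 arrays, which leaves 24 members, gave 9 for 24 against 3 months, 1 for 9 against 3, 4 for 12 against 9, 3 for 24 against 18, 12 for 18 against 3 and 15 over all ages. Slide as a random block gave 0 for 24 against 3 and for 24 against 18 months, 3 for 9 against 3, 1 for 18 against 3 and 7 over all ages. Fits on the compared ages alone gave 6 for 24 against 3 months, 22 for 9 against 3, 2 for 12 against 9 and 4 for 24 against 18. Slide as a fixed block gave 7 for 9 against 3 months and 17 for 12 against 9, and within a slide these were 25 and 12. Scan session as a block gave 2 for 9 against 3 and for 24 against 18 months and 10 for 18 against 3, bridged only by 12-month arrays for the last 2. Within scan session 1, 24 against 3 months gave 6. Without arrays 3 and 4 of 24 months it gave 5, and without array 2 of 12 months too it gave 8, as did 9 against 3 months. Leaving out 1 array at a time gave 6 to 22 for 24 against 3 months, 0 to 1 for 9 against 3, 1 to 7 for 12 against 9, 3 to 10 for 24 against 18, 18 to 21 for 18 against 3 and 19 to 28 over all ages. Differences that changed sign were Aurkb for 24 against 3 months (0.12 with normexp), Rrm2 for 24 against 18 months (0.63 with normexp, 0.03 as the mean of its probes) and Foxm1 for 24 against 18 months (-0.32 with scan session as a block). With the replicate number as a block, 9 were called for 24 against 3 months, 2 for 9 against 3, 1 for 12 against 9 and 4 for 24 against 18. Same-numbered arrays shared only a number: their residuals correlated at -0.3 to 0.12 over 25 pairs, and 1 of 16 arrays correlated best with its own number. Signal over background limits the dim members, since 15 of the 39 were below it on some array.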

Other observations

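Of the 12 cell division genes with more than 1 kept probe, Rrm1, Ccnd1 and Mcm4 had probes of opposite sign for 24 against 3 months, and none of these 3 was called. For the step from 18 to 24 months the probes of Rrm2 (-1.03 and 1.1), Plk1 (-0.33 and 0.43), Mcm4 (-0.17 and 0.74) and Ccnd1 (-0.01 and 0.03) disagreed in sign. The probes of Ttk, Plk1, Mki67, Top2a, Bub1b and Rrm2 all gave lower levels at 18 and at 24 than at 3 months. For Mki67 they gave -2.58 and -3.52 at 18 months and -1.56 and -1.52 at 24 months.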
